A study of Mus musculus with 6 samples.

Results

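Genes for enzymes that write or remove histone marks, 10 in all with the retinoblastoma gene, were followed in the embryonic mouse ductus arteriosus (DA), the artery that joins the pulmonary artery to the aorta before birth. They were chosen by gene symbol and are *Setd8*, *Suv420h1*, *Suv420h2*, *Ehmt1*, *Ehmt2*, *Hdac1*, *Hdac2*, *Hdac3*, *Ezh2*, and *Rb1*. All 10 were found among the 23997 genes of the deposited expression table, and all 10 were among the 12955 genes that were tested. Bulk RNA-Seq was carried out on DA of C57BL/6 embryos at E17.5, with 3 WT libraries and 3 libraries labelled KO from *Prdm6* fl/fl mice carrying *SM22-Cre*. *SM22-Cre* drives Cre-recombinase in smooth muscle cells (SMCs). The *SM22* promoter is known to be active for a time in embryonic heart muscle as well. Whether *Prdm6* stays intact in the other cell types of the dissected vessel is not shown by the sources used here. The labels do not say whether the WT embryos carried the Cre or a floxed allele. The study examined how a smooth muscle loss of *Prdm6* alters transcription in the DA. The comparison described here asks whether transcripts of these 10 genes differ between the groups.

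PRDM6 is a SET-domain repressor that is known to act on lysine 20 of histone H4 (H4K20) and to associate with class I histone deacetylases and with G9a. H4K20 is monomethylated by SET8 (gene *Setd8*), and the monomethyl mark is carried on to the di- and trimethyl forms by SUV420H1 and SUV420H2, which can be recruited by the retinoblastoma protein RB1. G9a (gene *Ehmt2*) and GLP (gene *Ehmt1*) work as a heterodimer that mono- and dimethylates H3K9 in euchromatin. HDAC1, HDAC2, and HDAC3 are class I deacetylases that act within corepressor complexes, and EZH2 is the catalytic subunit of Polycomb repressive complex 2 (PRC2), which methylates H3K27. RB1 holds E2F transcription factors in check at the transition from G1 to S phase.

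Upstream sequence was read from RefSeq (GRCm38.p6), which matched 7 of the 10 genes with 11 annotated starts, and *Hdac1*, *Hdac3*, and *Rb1* had no entry. The 250 bases before each start were searched on both strands for GGGGCGGGG, a GC box, and for the E2F words TTTCGCGC, TTTGGCGC, and TTTCCCGC. Windows of 2 genes are shown, that of *Ehmt1*, whose levels did not overlap between the groups, and that of *Suv420h2* (current symbol *Kmt5c*), the only one of the 11 windows with an E2F word. Capitals mark the matched letters, and both matches lie on the opposite strand of the one printed, 5′ to 3′ in the direction of the gene.
Ehmt1, chr2:24919610-24919859, minus strand: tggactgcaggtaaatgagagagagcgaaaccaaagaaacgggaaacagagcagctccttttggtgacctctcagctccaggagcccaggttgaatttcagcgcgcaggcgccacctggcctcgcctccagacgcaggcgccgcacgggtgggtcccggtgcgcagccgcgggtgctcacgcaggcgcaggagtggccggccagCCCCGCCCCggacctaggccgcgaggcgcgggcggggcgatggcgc
Suv420h2, chr7:4739877-4740126, plus strand: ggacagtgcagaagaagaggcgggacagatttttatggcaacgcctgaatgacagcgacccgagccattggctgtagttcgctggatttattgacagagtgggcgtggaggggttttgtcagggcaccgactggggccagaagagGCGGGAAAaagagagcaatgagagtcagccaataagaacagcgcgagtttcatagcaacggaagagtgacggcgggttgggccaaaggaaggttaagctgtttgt
The GC box of *Ehmt1* lay 46 to 38 bases before the start and the E2F word of *Suv420h2* 105 to 98 bases before it. A GC box was found in 3 of the 11 windows and in 10.4% of the same windows of all 32851 RefSeq promoters, and any of the E2F words in 1.53% of all promoters. CpG dinucleotides numbered 7 to 39 per window in the 11, with 26 in *Ehmt1* and 13 in *Suv420h2*, and all 11 were above the median of 6 over all promoters. These matches are a description of the letters and not of binding.

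The values are FPKM (fragments per kilobase of transcript, scaled to the mapped fragments of the library), and levels between genes are compared on this length-scaled unit. The smallest steps between low FPKM values put the depth of the libraries at roughly 10.97 to 14.17 × 10⁶ fragments, which is approximate because the scaling between libraries is not stated. On that estimate, each of the 10 genes rested on 168 to 6139 fragments per library. *Prdm6* itself had an FPKM of 41.7, 48.4, and 19.8 for the WT group and 48.6, 27.1, and 15.4 for the KO group, with the libraries of each group numbered 0, 1, and 2. It thus overlapped between the groups, and as the sources do not say which part of the gene is floxed, the names of the groups rest on their labels. The summed FPKM of 10 smooth muscle markers was 2537 to 5855 in WT and 936 to 2439 in KO, that of 9 Schwann cell markers was 14.9 to 40.4 and 47.7 to 174.2, and that of 10 neuron markers was 9.22 to 27.1 and 40.6 to 69.4. The erythroid sums were 3863 to 7581 in WT and 4284 to 24360 in KO, and the endothelial sums 350.9 to 471.0 and 397.8 to 634.2, so both overlapped. KO libraries 0 and 1 were nevertheless above every WT library in the erythroid sum (12640 and 24360). The same held for KO libraries 1 and 2 in the endothelial sum (634.2 and 600.1). Macrophage sums overlapped as well, at 38.0 to 155.1 in WT and 32.1 to 116.2 in KO. The heart muscle sums reached 1625 in WT library 1 and 1857 in KO library 2, against 64.1 to 465.2 in the other 4 libraries. KO library 0 held both the X-inactivation transcript *Xist* (81.0 FPKM) and the Y-linked *Ddx3y* (26.4 FPKM). *Xist* was at 67.0 FPKM in WT library 0 and 82.8 in KO library 1, with *Ddx3y* at 0 and 0.383. *Ddx3y* was at 24.0 and 23.4 FPKM in WT libraries 1 and 2 and 20.1 in KO library 2, with *Xist* at 0.053, 0.043, and 0.047. The groups thus differed in their make-up by these transcripts. The part of these differences in the values below was not tested. In bulk tissue, fewer cells of a type and less RNA per cell cannot be told apart.

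None of the 10 genes passed the test across all genes (limma on log2(FPKM + 0.1), Benjamini-Hochberg adjusted p under 0.05), under which 1 of 12955 genes, or 0.00772%, was called. That gene was *Rn45s*, the precursor of ribosomal RNA, listed at 0 in every WT library and at 3060, 3806, and 4520 FPKM in KO. Its listed values thus did not overlap between the groups. Ribosomal RNA in the tissue, library preparation, and processing cannot be told apart as the source of these values. The part of any of them in the values of the 10 genes was not tested. No member reached an unadjusted p under 0.05 in this fit either, against 8.28% of all tested genes, while 1 member did so in each of 4 of the 16 alternatives (*Rb1* without the mean-variance trend and without WT library 2, *Ehmt1* without moderation, and *Hdac2* without WT library 1). The shares of all tested genes at that p in those 4 fits are not given here. The adjusted p of the 10 genes lay between 0.611 and 0.989 (limma). Their median log2 fold change was -0.05, and the median of all tested genes was 0.07. Of the 12955 tested genes 7207 were above 0 and 5748 below, and of the 10 genes 4 were above 0 and 6 below. In 2 genes the 3 WT and the 3 KO libraries did not overlap, *Ehmt1*, which was lower in KO, and *Rb1*, which was higher. Of all tested genes, 7.84% were lower and 8.21% higher in KO without overlap, so that 1 in 10 in each direction is near the background. When WT library 1 and KO library 2, the libraries highest in heart muscle markers, were left out, 3 of the 10 genes did not overlap, against 38.0% of all genes at 2 libraries a group, and none was called. The third was *Hdac2*, named after its values were seen.

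**Figure D1:**
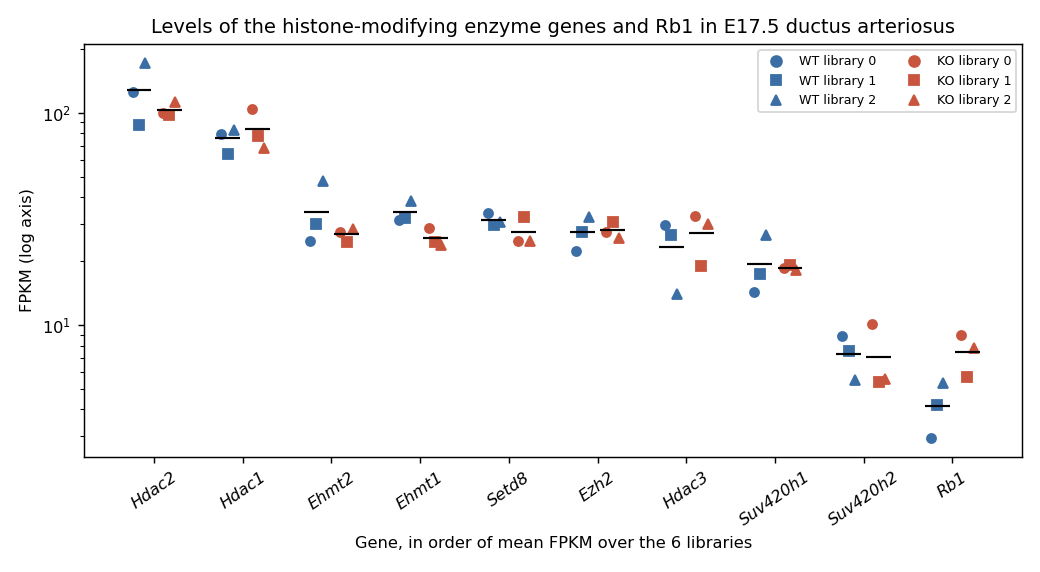
FPKM of the 10 genes (log axis) in each of the 3 WT (blue) and 3 KO (red) libraries, with the mean of each group as a black line and the genes ordered by their mean over the 6 libraries. Only *Ehmt1* and *Rb1* show WT and KO points that do not overlap, and the levels run from *Hdac2* at 115.6 FPKM to *Rb1* at 5.82 FPKM.

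The 3 genes for H4K20 methyltransferases overlapped between WT and KO. *Setd8* (chromosome 5, 124439930 to 124462308 on GRCm38), which encodes the monomethyltransferase, had an FPKM of 33.5, 29.6, and 30.4 in WT and 24.8, 32.4, and 24.98 in KO. The KO libraries 0 and 2 were below all WT libraries while KO library 1 lay among them, with means of 31.2 ± 2.08 in WT and 27.4 ± 4.33 in KO (SD, n = 3). Its log2 fold change was -0.20 (95% interval -0.64 to 0.25, limma adjusted p = 0.756). *Setd8* was the steadiest of the 10 genes, with 1.35 times between its highest and its lowest library.

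*Suv420h1* (current symbol *Kmt5b*; chromosome 19, 3767421 to 3818303), which di- and trimethylates H4K20, was measured at 14.3, 17.3, and 26.5 FPKM in WT and 18.5, 19.1, and 18.1 FPKM in KO. All KO libraries lay within the range of the WT libraries, and the CV was 32.7% in WT and 2.73% in KO. The log2 fold change was -0.01 (95% interval -0.63 to 0.61, limma adjusted p = 0.989), an interval wide enough that these libraries do not show the groups to be alike. Its paralog *Suv420h2* (chromosome 7, 4740115 to 4747514) was measured at 8.91, 7.57, and 5.52 FPKM in WT and 10.1, 5.41, and 5.58 FPKM in KO. The highest and the lowest of the 6 values were both in KO libraries. Its log2 fold change was -0.09 (95% interval -1.0 to 0.82, limma adjusted p = 0.951), and it was measured less precisely than *Suv420h1*, at 168 to 344 estimated fragments per library against 1084 to 1782.

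Both genes of the H3K9 methyltransferase heterodimer had lower means in KO. *Ehmt1* (GLP; chromosome 2, 24789928 to 24919614) had an FPKM of 31.2, 32.1, and 38.4 in WT and 28.5, 24.5, and 23.8 in KO. Every KO library was below every WT library, with means of 33.9 ± 3.90 and 25.6 ± 2.55 (SD, n = 3). The log2 fold change was -0.40 (SE 0.19, 95% interval -0.83 to 0.03), and did not pass the test (limma adjusted p = 0.611). The two-sided exact permutation test gave p = 0.1, the smallest that 3 against 3 libraries allow. Leaving out each library in turn left the log2 fold change between -0.48 and -0.31, with -0.48 without KO library 0, and omitting WT library 1 and KO library 2 together gave -0.39.

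*Ehmt2* (G9a; chromosome 17, 34898469 to 34914052) was measured at 24.9, 30.0, and 47.8 FPKM in WT and 27.4, 24.6, and 28.2 FPKM in KO. The groups overlapped, and WT library 2 stood above the other 5 libraries. The log2 fold change of -0.30 (SE 0.26, limma adjusted p = 0.735) became -0.03 when WT library 2 was left out. The ratio of *Ehmt1* to *Ehmt2* within a library, which does not depend on the scaling of the library, was 1.26, 1.07, and 0.803 in WT and 1.04, 0.995, and 0.843 in KO. The 2 partners thus lay close to a ratio of 1 in all 6 libraries, and the ratio overlapped between the groups (log2 difference -0.10, two-sided exact permutation p = 0.7, adjusted p = 0.9 over 6 ratios).

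The 2 most abundant genes were class I deacetylases. *Hdac2* (chromosome 10, 36974544 to 37001889) had an FPKM of 125.0, 87.7, and 172.1 in WT and 100.1, 97.1, and 111.8 in KO. The 3 KO libraries fell inside the wide WT range, and the log2 fold change was -0.27 (SE 0.25, limma adjusted p = 0.747). This value rested on single WT libraries, since it was -0.51 without WT library 1 (limma adjusted p = 0.499), where the groups no longer overlapped, as in 28.9% of all genes in that fit, and -0.03 without WT library 2. *Hdac1* (chromosome 4, 129516104 to 129542713) was measured at 79.7, 64.0, and 83.4 FPKM in WT and 104.3, 77.8, and 68.5 FPKM in KO, with the highest value in KO library 0. Its log2 fold change was 0.13 (95% interval -0.35 to 0.61, limma adjusted p = 0.847).

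*Hdac3* (chromosome 18, 37935844 to 37955016), a class I deacetylase of nuclear corepressor complexes, was measured at 29.6, 26.7, and 13.9 FPKM in WT and 32.7, 19.0, and 29.8 FPKM in KO. WT library 2 was the lowest, at 310 estimated fragments, and the highest library was 2.35 times the lowest. The log2 fold change of 0.25 had a 95% interval of -0.56 to 1.05 (limma adjusted p = 0.825). The ratio of *Hdac1* to *Hdac2* was 0.637, 0.730, and 0.484 in WT and 1.04, 0.801, and 0.613 in KO. *Hdac2* was thus above *Hdac1* in 5 of 6 libraries, the exception being KO library 0. The ratio was higher in KO by 0.39 on the log2 scale, with overlap (two-sided exact permutation p = 0.3, adjusted p = 0.6). The ratio of *Hdac1* to *Hdac3* was 2.69, 2.40, and 5.99 in WT and 3.19, 4.10, and 2.30 in KO, with a log2 difference of -0.12 (two-sided exact permutation p = 0.8, adjusted p = 0.9).

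*Rb1* (chromosome 14, 73183673 to 73325822) had the largest log2 fold change of the 10 genes and the lowest mean FPKM over the 6 libraries, although it could not be ranked below *Suv420h2*. Its FPKM was 2.93, 4.20, and 5.31 in WT and 8.996, 5.71, and 7.75 in KO. Every KO library was above every WT library, although KO library 1 exceeded WT library 2 by little, with means of 4.15 ± 1.19 and 7.48 ± 1.66 (SD, n = 3). The log2 fold change was 0.85 (SE 0.41, 95% interval -0.09 to 1.80), a ratio of 1.81 times on that scale, and it did not pass the test (limma adjusted p = 0.620). The two-sided exact permutation p was 0.1. It lay between 0.63 and 1.05 when each library was left out in turn, with 0.71 without KO library 0, and omitting WT library 1 and KO library 2 together gave 0.84. After quantile normalization it was 0.75 and the groups overlapped.

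Exons of *Rb1* share 488 of 6015 annotated bases with *Rcbtb2* and 408 with *Lpar6*, both on the opposite strand, and the sources do not state whether the libraries kept strand. The FPKM of *Rcbtb2* was 18.9, 12.8, and 18.1 in WT and 31.6, 15.3, and 16.0 in KO, and that of *Lpar6* was 6.85, 4.42, and 1.87 in WT and 6.86, 5.89, and 6.80 in KO. Both overlapped between the groups, and their part in the *Rb1* values was not tested. *Suv420h1* shares 927 of its 14752 annotated exon bases with an antisense gene, *Gm16066*, that has no row in the table.

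The other pocket protein genes, whose products bind E2F factors as RB1 does, overlapped between the groups. *Rbl2* (p130) was measured at 12.4, 14.2, and 15.1 FPKM in WT and 13.4, 14.6, and 11.4 FPKM in KO (log2 fold change -0.08), and *Rbl1* (p107) at 14.4, 13.4, and 16.4 and 18.3, 13.1, and 19.4 FPKM (log2 fold change 0.18). The ratio of *Rb1* to *Rbl2* was 0.236, 0.296, and 0.352 in WT and 0.670, 0.392, and 0.681 in KO. *Rb1* was below *Rbl2* in all 6 libraries, and the ratio did not overlap between the groups. The log2 difference was 0.94 (two-sided exact permutation p = 0.1, the smallest possible; adjusted p = 0.3 over the 6 ratios) and 0.79 to 1.195 with each library left out.

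*Ezh2* (chromosome 6, 47530139 to 47595341) was measured at 22.3, 27.3, and 32.4 FPKM in WT and 27.5, 30.6, and 25.8 FPKM in KO. The KO libraries lay inside the WT range, and the log2 fold change was 0.04 (95% interval -0.44 to 0.52, limma adjusted p = 0.958). Its paralog *Ezh1*, the alternative catalytic subunit of PRC2, was measured at 4.11, 9.77, and 9.97 FPKM in WT and 10.5, 14.3, and 11.4 FPKM in KO. *Ezh1* did not overlap between the groups, with a log2 fold change of 0.69 (SE 0.40, limma adjusted p = 0.667).

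The ratio of *Ezh2* to *Ezh1* was 5.43, 2.80, and 3.25 in WT and 2.62, 2.14, and 2.27 in KO. *Ezh2* exceeded *Ezh1* in all 6 libraries, and every KO ratio was below every WT ratio. KO library 0 (2.62) was below WT library 1 (2.80) by little. The log2 difference was -0.64 (two-sided exact permutation p = 0.1, the smallest possible, and adjusted p = 0.3 over the 6 ratios). It was -0.36 to -0.83 with each library left out, with -0.36 without WT library 0. The ratio of *Suv420h1* to *Suv420h2* was 1.61, 2.29, and 4.80 in WT and 1.83, 3.53, and 3.24 in KO. *Suv420h1* was the higher of the pair in all 6 libraries, and the ratio overlapped between the groups (log2 difference 0.08, two-sided exact permutation p = 0.9, adjusted p = 0.9).

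**Figure D2:**
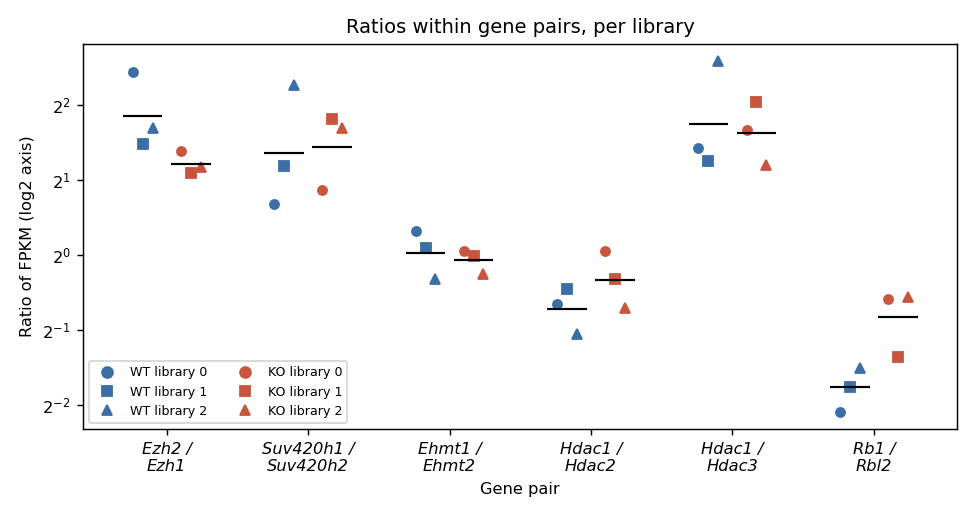
Ratio of FPKM within 6 pairs of related genes (log2 axis) in each WT (blue) and KO (red) library, with the mean of the log2 ratios of each group as a black line. The ratios of *Ezh2* to *Ezh1* and of *Rb1* to *Rbl2* do not overlap between the groups, and the other 4 do.

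**Figure D3:**
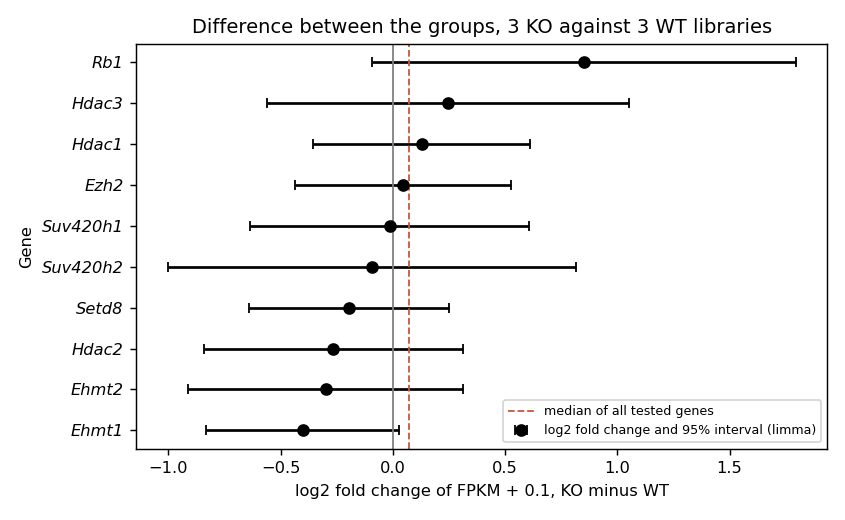
Log2 fold change of FPKM + 0.1, KO minus WT, of the 10 genes with the 95% interval from limma (3 against 3 libraries), with 0 as a gray line and the median of all tested genes (0.07) as a dashed line. The interval of every gene includes 0, and those of *Ehmt1* and *Rb1* reach 0.03 and -0.09 at the end nearest 0.

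In order of the mean FPKM over the 6 libraries, *Hdac2* (115.6) and *Hdac1* (79.6) came first, followed by *Ehmt2* (30.5), *Ehmt1* (29.8), *Setd8* (29.3), *Ezh2* (27.7), *Hdac3* (25.3), *Suv420h1* (19.0), *Suv420h2* (7.18), and *Rb1* (5.82). Neighbours in this order differed beyond their spread in 2 places, between *Hdac1* and *Ehmt2* and between *Suv420h1* and *Suv420h2*, where the upper gene was higher in 6 of 6 libraries. *Ehmt2*, *Ehmt1*, *Setd8*, *Ezh2*, and *Hdac3* each exceeded the next in 3 or 4 of 6 libraries and could not be ranked, and the same held for *Suv420h2* over *Rb1* (4 of 6) and for *Hdac2* over *Hdac1* (5 of 6). *Hdac2* was above 96.5% of all tested genes and *Rb1* above 33.7%.

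As a description with no match on level, the SD of the 10 genes on the log2 scale within groups was 0.15 to 0.51. Its median was 0.34, against a median of 0.50 over all tested genes, and 9 of 10 were below the latter. The CV of single genes nevertheless reached 35.7% in WT and 37.9% in KO. The CV was lower in KO than in WT for 7 of the 10, but each CV rests on 3 libraries and the share over all tested genes is not given here. WT library 2 was the highest of the 6 libraries in 5 genes and KO library 0 in 4.

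For each gene the genes with the most similar pattern over the 6 libraries were sought among 11026 genes, by the mean absolute difference in log2 deviation from each gene's own mean. The nearest were *Snx2* (0.0308) to *Ehmt1*, *Atxn7l3* (0.0319) to *Ezh2*, *Rybp* (0.0346) to *Hdac1*, *Zfp12* (0.0356) to *Setd8*, *Cdc23* (0.0432) to *Hdac3*, and *Trmt2a* (0.0447) to *Ehmt2*. *Gpatch2l* (0.0524) was nearest to *Hdac2*, *Ror1* (0.0546) to *Suv420h2*, and *Smap1* (0.0552) to *Suv420h1*. *Rb1* had the least similar neighbour, *Icosl* (0.113). The second nearest were *Rps9* (0.0426) to *Ehmt1*, *St7l* (0.0474) to *Ezh2*, *Zhx3* (0.0504) to *Hdac1*, *Plekhm1* (0.0417) to *Setd8*, *Wdfy2* (0.0600) to *Hdac3*, and *Baz2b* (0.0547) to *Ehmt2*. They were *Fut10* (0.0631) to *Hdac2*, *Ifitm2* (0.0689) to *Suv420h2*, *Myzap* (0.0621) to *Suv420h1*, and *Fadd* (0.142) to *Rb1*. Among the 10 genes themselves the closest pair was *Suv420h1* and *Ezh2*, at 0.104. With 6 libraries these values describe likeness only.

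The surrounding pathways were read from 8 lists with 128 genes, of which 126 were tested. By limma 0 of the 126 had an adjusted p under 0.05 (lowest 0.502), and 8, or 6.35%, had an unadjusted p under 0.05, 4 higher and 4 lower in KO. The groups did not overlap in 13 genes (10.3%) that were higher and 6 (4.76%) that were lower in KO. Over all tested genes these shares were 8.28% for the unadjusted p and 8.21% and 7.84% for the groups without overlap. Beside the counts above or below 0 given for single lists, 7207 of all 12955 tested genes were above 0 and 5748 below.

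**Figure D4:**
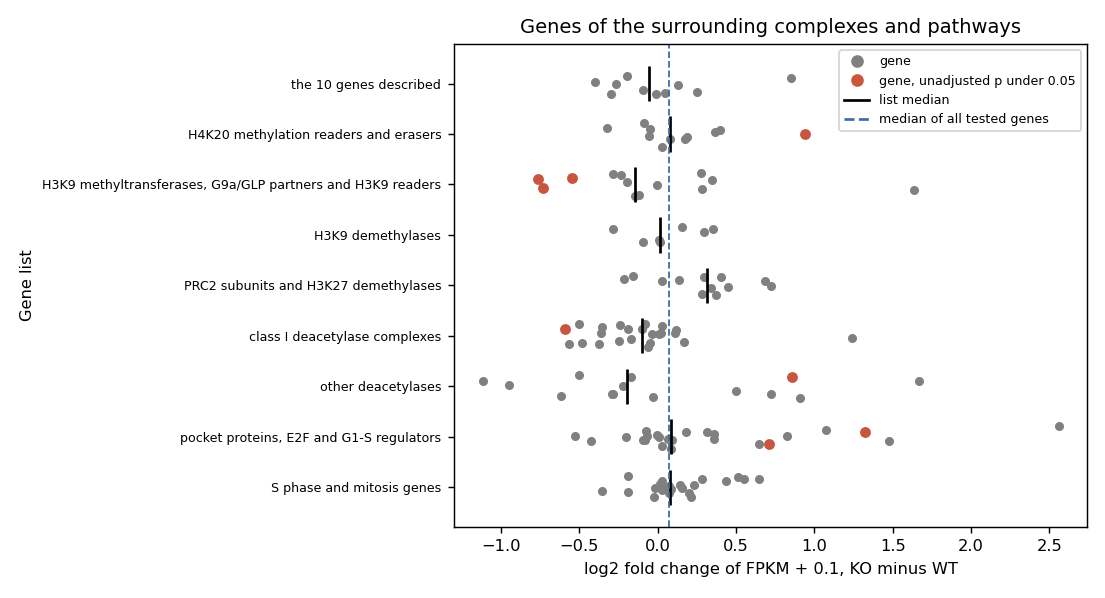
Log2 fold change of FPKM + 0.1, KO minus WT, of the tested genes (points) of the 10 genes described and of 8 lists of related genes, with list medians as black bars, the median of all tested genes as a dashed line, and red points for an unadjusted limma p under 0.05. The highest list median is that of PRC2 at 0.32 and the lowest that of the other deacetylases at -0.19.

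Of the readers and erasers of H4K20 methylation, 11 of 12 were tested and *L3mbtl1* was listed at 0 in all libraries. Their median log2 fold change was 0.08, with 7 above 0. *Kdm7a*, a histone demethylase of the *Phf8* family, was measured at 6.47, 6.73, and 6.35 FPKM in WT and 11.8, 15.2, and 11.2 FPKM in KO. All KO libraries lay above all WT libraries, and the log2 fold change was 0.94 (SE 0.28, limma adjusted p = 0.533).

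The 13 other H3K9 methyltransferases, partners of G9a and GLP, and H3K9 readers had a median of -0.15, with 9 below 0. The 3 with an unadjusted p under 0.05 were all lower in KO, a small count, where 8.28% of all tested genes reached that p in either direction. *Cbx1* (HP1 beta), a reader of methylated H3K9, was measured at 41.6, 32.7, and 55.6 FPKM in WT and 24.1, 25.4, and 26.7 FPKM in KO (log2 fold change -0.74, limma adjusted p = 0.540). *Cdyl*, which binds G9a complexes, was measured at 23.1, 22.9, and 29.2 FPKM in WT and 19.3, 15.2, and 16.8 FPKM in KO (log2 fold change -0.55, limma adjusted p = 0.589). *Mphosph8*, a reader in the HUSH complex, was measured at 12.1, 12.4, and 19.0 FPKM in WT and 7.13, 9.29, and 8.70 FPKM in KO (log2 fold change -0.76, limma adjusted p = 0.588). None of these overlapped between the groups, whereas *Suv39h1* (log2 fold change 0.28) and *Suv39h2* (1.63, SE 1.33, listed at 0 in WT library 2) did. So did *Cbx3* (-0.12), *Cbx5* (0.35), *Wiz* (-0.20), and *Zfp644* (-0.002) of the same list, named after their values were seen.

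Of 8 H3K9 demethylases 7 were tested, with a median of 0.01 and no unadjusted p under 0.05, and *Kdm4d* was below the filter. The largest differences were those of *Jmjd1c* (log2 fold change 0.35), which did not overlap, and *Kdm3a* (0.30), which did. The 12 other PRC2 subunits and H3K27 demethylases had the highest median of the lists, 0.32, with 10 above 0 and no unadjusted p under 0.05. Their groups did not overlap in 4, all higher in KO: *Ezh1*, *Suz12*, *Phf19* (log2 fold change 0.72), and *Mtf2* (0.34), the last named after its values were seen. Over all tested genes, 8.21% were higher in KO without overlap, and the 4 are a small count from 1 of 8 lists. *Suz12*, a core subunit, was measured at 16.4, 15.4, and 14.7 FPKM in WT and 26.1, 17.9, and 18.6 FPKM in KO (log2 fold change 0.40, limma adjusted p = 0.657). The core subunit *Eed* had a log2 fold change of 0.03.

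The 23 genes of class I deacetylase complexes had a median of -0.10, with 16 below 0. *Chd4* (log2 fold change -0.36) and *Mbd2* (-0.38), of the NuRD complex and named after their values were seen, were lower in KO without overlap. Of all tested genes, 7.84% were lower in KO without overlap. The other NuRD genes of the list overlapped between the groups. Their log2 fold changes were -0.19 (*Mta1*), 0.007 (*Mta2*), -0.24 (*Mta3*), -0.05 (*Chd3*), -0.50 (*Mbd3*), 0.11 (*Gatad2a*), and 0.02 (*Gatad2b*). *Hdac8*, the remaining class I deacetylase, had a log2 fold change of -0.25 with wide spread (SE 0.88). Among 14 other deacetylases the median was -0.19. *Sirt1*, an NAD-dependent deacetylase, was measured at 6.28, 7.56, and 4.36 FPKM in WT and 12.3, 8.02, and 12.8 FPKM in KO, without overlap (log2 fold change 0.86, limma adjusted p = 0.595).

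The 24 pocket protein, E2F, and G1-S genes had a median of 0.08, near that of all genes. *Cdk6*, a cyclin D-dependent kinase that phosphorylates RB1, was measured at 16.9, 16.7, and 17.53 FPKM in WT and 33.3, 26.2, and 25.1 FPKM in KO. The WT libraries were nearly equal and all KO libraries lay above them, with a log2 fold change of 0.71 (SE 0.20, limma adjusted p = 0.502). *E2f2*, an activating E2F factor, was measured at 2.78, 5.35, and 4.46 FPKM in WT and 12.1, 14.7, and 6.04 FPKM in KO (log2 fold change 1.32, limma adjusted p = 0.553). The 22 genes of S phase and mitosis had a median of 0.08 and no unadjusted p under 0.05, with the largest values in the mitotic kinase genes *Aurkb* (log2 fold change 0.64, with overlap) and *Bub1* (0.55, without overlap). Without WT library 1 and KO library 2, the number of genes with an unadjusted p under 0.05 was 0 for the H4K20 list, 1 for the H3K9 methyltransferase list, 1 for PRC2, 0 for class I complexes and other deacetylases, and 3 for the pocket protein list. The share of all tested genes at that p in this fit is not given here, so these counts have no background.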

How the data were processed

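Bulk RNA-Seq of the DA at E17.5 was analysed in 6 libraries, 3 WT and 3 KO, grouped by their sample titles, and every column of the table matched a title. Per the methods and the labels, trimmed reads were mapped by the authors to mm10 (TopHat2), and the deposited unit is FPKM, obtained through Cufflinks and Cuffdiff. Versions, gene annotation, strand, and library scaling are not given in the sources used here. Nothing says whether the libraries came from separate embryos or pools, so p-values measure the spread between these libraries.

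From the deposited FPKM, log2(FPKM + 0.1) was computed, which understates the change of low genes. Genes whose FPKM averaged 1 or more were tested with limma 3.58.1 in R 4.3.3 (lmFit, then eBayes using the mean-variance trend; two-sided, Benjamini-Hochberg over all 12955 genes, threshold 0.05), and the fit was tested on simulated data. Single genes and ratios were compared with two-sided exact permutation tests. The depth was estimated from the FPKM that 1 fragment is worth in genes with 1 transcript, and covers no counting interval. Gene positions came from GENCODE vM21 (GRCm38).

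The 10 genes and the lists were chosen with earlier results of these data known. Named in addition were list genes with an unadjusted p under 0.05 or, where a list had none, its 2 largest changes, plus fixed paralogs and partners and the 2 genes most alike in pattern. A gene that this rule names is not reported here. In all 16 alternatives were run, covering pseudocount, filter, scaling, variance model, replicate block, and omitted libraries.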

Additional observations from a re-analysis of the deposited data

How the results depend on the processing

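None of the 10 genes was called in any of the 16 alternatives, in which the lowest adjusted p was 0.499 (limma). The number of genes called over the whole table was 1, with 2 without the mean-variance trend, 2 without moderation, 3 without the 2 libraries highest in heart muscle markers, and 1 to 3 with each library left out (3 without WT library 1, KO library 0, or KO library 2). Of the 10 genes 2 did not overlap between the groups, with 1 after quantile normalization and 2 to 4 with each library left out (4 without KO library 1), where 24.0% to 28.9% of all genes did not overlap because fewer libraries are compared. The cause of the other shifts was not tested. *Ehmt1*, *Ehmt2*, *Setd8*, *Hdac2*, and *Rb1* kept their direction in all alternatives. With each library left out, the log2 fold change spanned -0.21 to 0.24 for *Suv420h1*, -0.38 to 0.062 for *Suv420h2*, -0.043 to 0.26 for *Hdac1*, -0.089 to 0.49 for *Hdac3*, and -0.093 to 0.17 for *Ezh2*, so that each changed sign. *Suv420h1* was 0.028 after quantile normalization and *Suv420h2* 0.076 without the libraries high in heart muscle markers. The log2 ratio of *Suv420h1* to *Suv420h2* was -0.13 and that of *Ehmt1* to *Ehmt2* 0.018 without those libraries, and with each library left out they spanned -0.26 to 0.52 and -0.28 to 0.044, while that of *Hdac1* to *Hdac3* spanned -0.37 to 0.29. The library numbers 0, 1, and 2 are not described as pairs, and the deviations of same-numbered libraries correlated at 0.122, -0.0762, and -0.00878. With the replicate block 1 gene was called, as without it, and the adjusted p was 0.640 for *Ehmt1* and 0.642 for *Rb1* (limma). Counts of list genes at an unadjusted p under 0.05 are small and moved by over 1.5 times in some alternatives for every list. With the estimated depth, the least abundant genes, *Rb1* and *Suv420h2*, rested on 168 fragments in their lowest libraries.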
